A study of Mus musculus with 4 samples.

Results

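Cxcl12 and its receptors Cxcr4 and Ackr3 were followed through the Tbx1Cre lineage of the mouse embryo. The 3 genes were matched by Ensembl identifier (ENSMUSG00000061353, ENSMUSG00000045382 and ENSMUSG00000044337) in the gene tables of all 4 libraries, and are 3 of the 27514 genes that those tables share. On GRCm38.p6, where the genes were matched by symbol, Cxcl12 lies at chr6:117168535-117181368, Cxcr4 at chr1:128588199-128592299 and Ackr3 at chr1:90203980-90215724.

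Cxcl12 encodes a secreted chemokine, also called SDF-1, that is held on matrix and cell surfaces and guides migrating cells. Cxcr4 is its signalling receptor, coupled to Gi proteins, and is known from the migration of blood progenitors, germ cells, neurons, endothelium and muscle precursors. Ackr3 is an atypical receptor that binds the same ligand, recruits arrestin and takes the ligand up, which lowers its local concentration. A cell group with the ligand transcript is called a sender below and a group with a receptor transcript a receiver, as names for where transcripts were counted.

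GFP-positive, DAPI-negative cells were sorted from trypsin-treated Swiss Webster embryos and captured for 3′-end single-cell RNA-seq, with 1 library per group. The control (Ctrl) was Tbx1Cre/+;Rosa26-GFPflox/+ and the conditional mutant (cKO) was Tbx1Cre/flox;Rosa26-GFPflox/+, each at embryonic day (E) 8.5 and E9.5. Cre is driven from the Tbx1 locus and inactivates that allele, so the Ctrl embryos were heterozygous for Tbx1, and the Rosa26 reporter marks every cell whose ancestors had Cre. Embryos of a group were pooled. The dissection took the upper part of the body at E8.5 and the pharyngeal apparatus and heart at E9.5, where the paper's sample summary adds the back.

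The libraries held 1434 (Ctrl E8.5), 1090 (cKO E8.5), 5453 (Ctrl E9.5) and 6266 (cKO E9.5) cells, with median depths of 15910.5 to 23984 unique molecular identifiers (UMIs) per cell. Levels are given as UMIs of a gene per 1000000 UMIs of shared genes (UPM) summed over the cells of a group, with exact 95% Poisson intervals, and ratios as log2 cKO/Ctrl with exact conditional binomial intervals. With 1 library per group no test between groups was possible, and the intervals cover counting error only, not the variation between embryos or libraries. Tbx1 itself was at 86.4 and 118 UPM in Ctrl and cKO at E8.5 and at 103 and 134 UPM at E9.5, so it was not lower in the libraries labelled cKO; counts per gene do not show which exons remained, and the labels were not checked by them. The library labelled cKO at E9.5 stood apart: its gene table lists 31053 genes against 27998 in the others, and without integration 90.9% of its cells fell in unnamed clusters. Between 2 and 55 cell barcodes were shared by any pair of libraries, at most 1.01% of the smaller.

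The median log2 ratio of all genes was 0.04 at E8.5 and -0.26 at E9.5, and the ratios below are to be read against it. Cells fell into 24 clusters, of which all but 3 carried enough markers to be named in 10 classes, and the 3 genes themselves were left out of the clustering. The sample labels name pharyngeal mesoderm, yet epithelial-like cells, with Epcam and Cldn6, were 13.8% of Ctrl and 3.1% of cKO cells at E9.5, and neural-like cells 1.89% and 2.60%. The other classes were mesenchyme-like, posterior and anterior second heart field-like (pSHF and aSHF, the latter with somatic mesoderm, SoM), multilineage progenitor-like (MLP), branchiomeric muscle-like (BrM), cardiomyocyte-like (CM), neural crest-like and endothelial-like.

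Over all cells, the ligand was higher and the signalling receptor lower at E9.5 than at E8.5. Cxcl12 was at 22.2 UPM (560 UMIs) and 29.7 UPM (765) in Ctrl and cKO at E8.5 and at 167 (15740) and 129 (13454) at E9.5. Cxcr4 was at 6.89 UPM (174 UMIs), 6.06 (156), 3.01 (284) and 1.09 (114) in the same order. Ackr3 was at 1.07 UPM (27 UMIs), 0.505 (13), 2.61 (246) and 2.26 (236). Each of the 3 genes thus differed more between stages in Ctrl than its intervals span, but the dissections of the 2 stages also differed and cannot be told apart from stage.

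In Ctrl, the log2 ratio E9.5/E8.5 was 2.91 for Cxcl12 (interval 2.79 to 3.04) and 1.29 for Ackr3 (0.71 to 1.92). Both were among the 15.7% of 13103 genes at or above 1, where the median of all genes was 0.38. For Cxcr4 it was -1.19 (-1.47 to -0.91), and 2.41% of genes were at or below -1. In cKO the same ratios were 2.11, 2.16 and -2.48, so over all cells each gene had the same sign in both genotypes. By class, the Ackr3 ratio in Ctrl was 2.35 (1.27 to 3.70) in mesenchyme-like cells, on 7 and 133 UMIs. In aSHF/SoM-like cells it was -1.97 (-3.78 to -0.25), on 8 and 6 UMIs.

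At E9.5, Cxcr4 was the member with the largest difference between the genotypes. Its log2 ratio over all cells was -1.47 (-1.79 to -1.15), against -0.38 (-0.41 to -0.34) for Cxcl12 and -0.21 (-0.47 to 0.05) for Ackr3. Thus 1 of the 3 members was at or below -1, as were 8.22% of 13825 genes, and none was at or above 1, as were 2.92%. The Cxcl12 and Ackr3 values lay close to the median of all genes, -0.26, and became -0.12 and 0.05 when the libraries were scaled by TMM, so for Ackr3 the sign depends on the scaling.

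At E8.5, Cxcl12 was instead higher in cKO, with a log2 ratio of 0.42 (0.26 to 0.58), and the interval for Cxcr4 held 0 (-0.19, -0.51 to 0.13). The somite ranges in the paper put the E8.5 cKO embryos slightly later than the Ctrl embryos. Genotype and age therefore cannot be told apart in the E8.5 ratios. Neither of the 2 members with at least 50 UMIs passed a log2 ratio of 1 in size, which 0.614% of 11393 genes did downwards and 1.84% upwards. Ackr3 had only 27 and 13 UMIs at that stage, and its ratio of -1.08 (-2.16 to -0.08) rests on them.

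**Figure D1:**
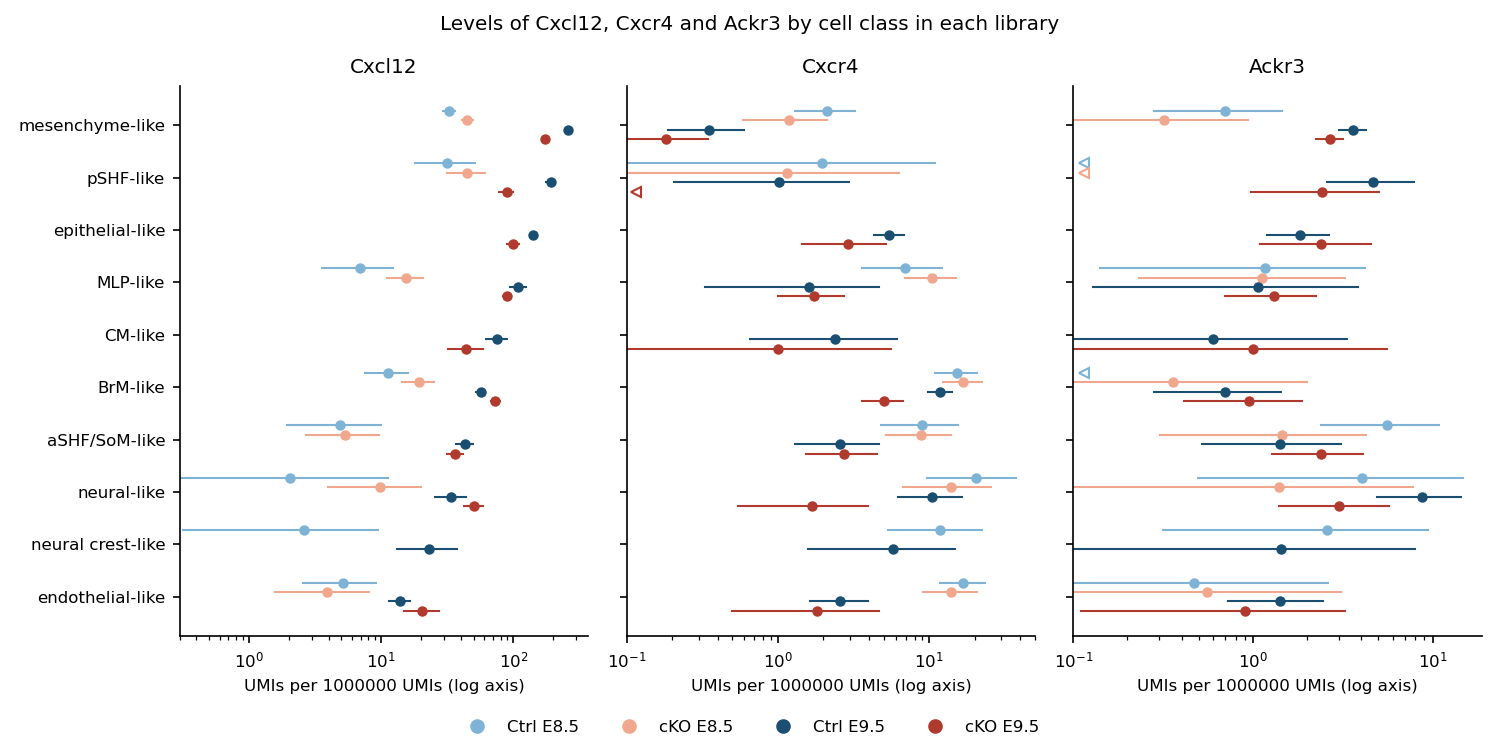
Level of each gene (UMIs per 1000000 UMIs, log axis) in each named class, with 1 point per library and exact 95% Poisson intervals as bars, clipped at the left edge; open triangles mark a sum of 0, and classes under 20 cells are not drawn. Cxcl12 is highest in mesenchyme-like cells at E9.5 (257 in Ctrl and 173 in cKO), where Cxcr4 is at 0.351 and 0.182.

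Mesenchyme-like cells were the main sender at both stages. Of all Cxcl12 UMIs they held 58.0% and 54.8% at E8.5 (Ctrl and cKO) and 60.5% and 63.6% at E9.5, as 40.4, 36.5, 42.9 and 49.1% of the cells. The E8.5 shares depend on the clustering: with each stage integrated alone, 55.5 and 52.9% of E8.5 cells were unnamed and mesenchyme-like cells held 89 of 560 and 119 of 765 UMIs. In Ctrl E9.5 the level was 257 UPM in mesenchyme-like cells (252 to 263), 191 in pSHF-like cells (175 to 207), 140 in epithelial-like cells (134 to 146) and 109 in MLP-like cells (94.2 to 125). CM-like and BrM-like cells followed at 75.1 and 56.5 UPM, and each class down to BrM-like had an interval apart from that of the next. The aSHF/SoM-like (43.2 UPM), neural-like (33.7), neural crest-like (23.0) and endothelial-like (13.9) cells stood at the low end, each with an interval that overlapped its neighbour's.

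In cKO E9.5 mesenchyme-like cells were again first, at 173 UPM. Epithelial-like (99.2), MLP-like (89.7), pSHF-like (88.9) and BrM-like cells (73.2) followed, each with an interval that overlapped the next, and neural-like cells (50.2) were apart from BrM-like cells. At E8.5 mesenchyme-like and pSHF-like cells already had the highest levels among classes of at least 20 cells, at 32.6 and 31.5 UPM in Ctrl and 44.8 and 44.3 in cKO, while BrM-like cells were at 11.2 and 19.3.

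Within mesenchyme-like cells the 2 stages gave opposite signs. At E8.5 Cxcl12 was higher in cKO by 0.46 on the log2 scale (0.25 to 0.67), and at E9.5 it was lower, with a ratio of -0.57 (-0.62 to -0.53). With each stage integrated alone the E8.5 interval held 0 (0.34, -0.07 to 0.76). Neither of the 2 members with at least 50 UMIs in this class was at or below -1 at E9.5, where 3.78% of 12025 genes were and the median of all genes was -0.21. At a fixed depth of 10000 UMIs per cell, 1762 of 2077 Ctrl cells (84.8%) and 2024 of 2740 cKO cells (73.9%) had a Cxcl12 UMI at E9.5, and before thinning 2137 of 2340 and 2597 of 3074 had one.

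All 7 mesenchyme-like clusters had a lower Cxcl12 level in cKO at E9.5, with intervals below 0, but by unequal amounts. Cluster 7, led by Crym and Tgfbi, went from 318 UPM in Ctrl to 173 in cKO (log2 ratio -0.88), and cluster 0, led by the somitic gene Meox1 and by Hoxa2, from 273 to 159 (-0.78). Cluster 5, led by Tagln and Myl9 and carrying the forkhead genes Foxf2 and Foxl1, went only from 278 to 240 (-0.21, where the median of all genes was -0.22), and cluster 1, led by Nbl1, Lum and Foxd1, from 241 to 152 (-0.66). The remaining 3 clusters lay between -0.42 and -0.39. The unnamed cluster 3, led by Zic1 and Msx1, had 187 UPM in Ctrl and 105 in cKO (-0.83, -0.95 to -0.71).

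Other mesodermal and epithelial senders also had less Cxcl12 in cKO at E9.5. The ratio was -1.10 (-1.32 to -0.89) in pSHF-like cells, the progenitors of the venous pole, with 569 UMIs in Ctrl and 256 in cKO. It was -0.77 (-1.30 to -0.27) in CM-like cells and -0.28 (-0.50 to -0.05) in MLP-like cells, and the interval held 0 in aSHF/SoM-like cells (-0.26, -0.55 to 0.04). The MLP-like interval also held the median of all genes in that class, -0.21. MLP-like cells were 2.09% of Ctrl cells (114) and 9.83% of cKO cells (616) at E9.5, so groups of unequal size are compared. Over all 9 classes compared at E9.5, 5 had a Cxcl12 interval below 0, 3 above 0 and 1 holding it, and over 22 clusters of at least 20 cells the counts were 14, 2 and 6.

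Epithelial-like cells need to be read by cluster, because 55.1% of the Ctrl cells but 36.6% of the cKO cells were in cluster 11 and 35.8% and 58.2% in cluster 13. Cluster 11 carried the pharyngeal endoderm markers Pax1, Pax9 and Foxa2, and its Cxcl12 level was 97.2 UPM in Ctrl (755 UMIs) and 33.1 in cKO (49 UMIs), a ratio of -1.55 (-2.0 to -1.13). Cluster 13, with Foxi2 and the surface ectoderm gene Trp63, was the strongest epithelial sender at 237 UPM in Ctrl and 150 in cKO (-0.66, -0.84 to -0.48). The otic-marked cluster 22 had only 13.7 UPM in Ctrl.

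Cxcl12 was higher in cKO at E9.5 in 3 classes with low levels in Ctrl. In BrM-like cells it was at 56.5 UPM in Ctrl and 73.2 in cKO (0.37, 0.21 to 0.54), in neural-like cells at 33.7 and 50.2 (0.57, 0.13 to 1.04), and in endothelial-like cells at 13.9 and 20.4 (0.55, 0.03 to 1.06). The neural-like class lay mostly in different clusters in the 2 libraries: cluster 20, with neuronal genes, was 35.9% of it in Ctrl and 77.9% in cKO and had 70.3 and 51.7 UPM (-0.45, -0.94 to 0.07), and cluster 21, with neural progenitor genes, had 11.3 and 40.2 UPM on 12 and 15 UMIs (1.84, 0.64 to 3.06). Markers of mesenchyme were also higher in these 3 classes. The summed level of 11 mesenchyme markers was 414 UPM in Ctrl and 463 in cKO BrM-like cells (8 of 11 higher), 171 and 467 in neural-like cells (10 of 11 higher), and 185 and 255 in endothelial-like cells (9 of 11 higher), with no marker at 0 in any of them. In pSHF-like cells, where Cxcl12 was lower in cKO, the sum was likewise higher (423 and 580 UPM, 8 of 11 higher), as in aSHF/SoM-like (510 and 625), MLP-like (975 and 1090) and epithelial-like cells (364 and 378). In mesenchyme-like cells it was 1850 and 1630 UPM, and the part of these markers in the Cxcl12 differences was not tested.

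RNA carried over from mesenchyme was not measured, but Cxcl12 in each class can be set against the same markers, some of which these cells may express. In Ctrl E9.5 the endothelial-like level of Cxcl12 was 5.40% of the mesenchyme-like level, below the median of 12.6% for the 11 markers (3.25 to 33.6%). The share was 54.3% against a median of 6.89% (3.71 to 71.0%) in epithelial-like cells, 74.1% against 12.1% (2.30 to 73.8%) in pSHF-like cells and 22.0% against 10.9% (5.61 to 60.9%) in BrM-like cells. In cKO E9.5 it was 42.4% against 25.9% in BrM-like, 29.1% against 20.8% in neural-like and 11.8% against 20.1% in endothelial-like cells.

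**Figure D2:**
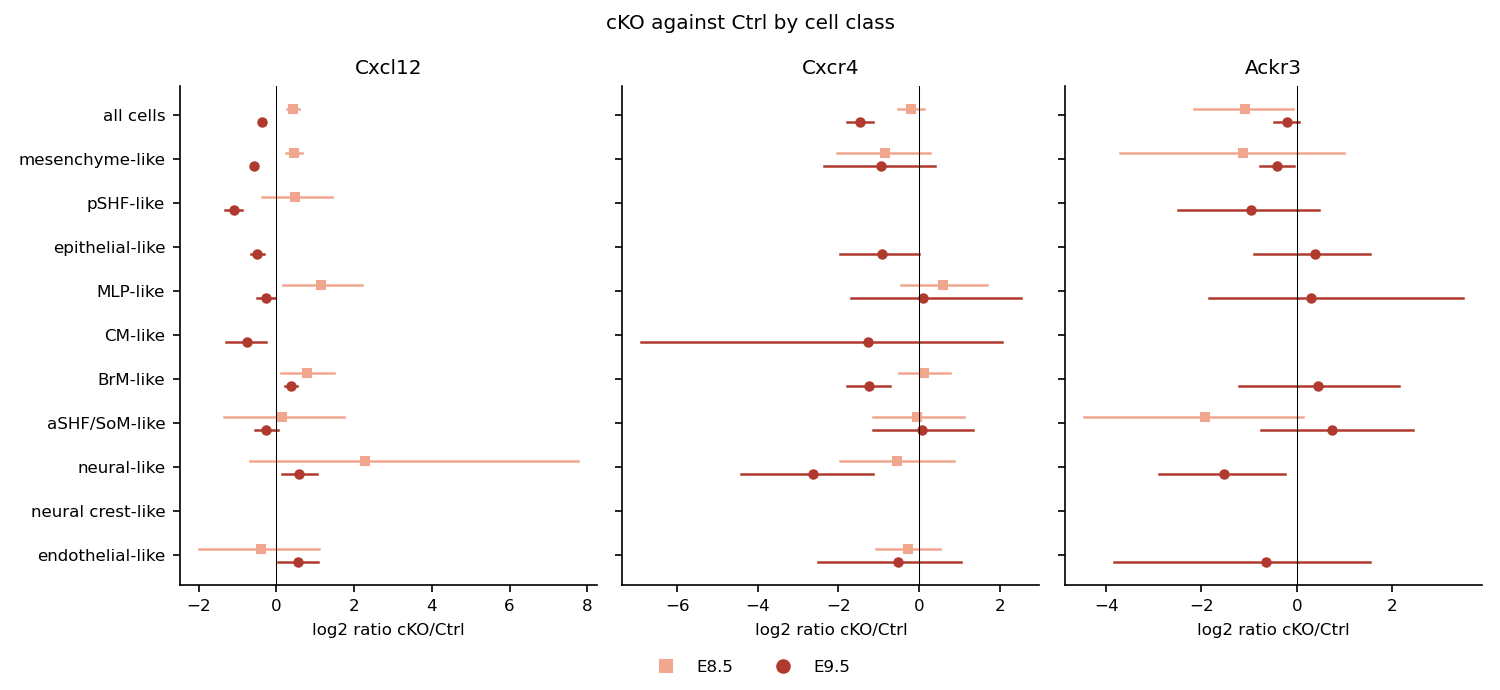
Log2 ratio cKO/Ctrl of each gene over all cells and in each class, with squares for E8.5, circles for E9.5 and exact 95% conditional binomial intervals as bars; a class is drawn where both libraries had at least 20 cells and a ratio could be formed. Cxcl12 in mesenchyme-like cells lies at 0.46 at E8.5 and at -0.57 at E9.5, and Cxcr4 in BrM-like cells at 0.13 and -1.24.

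Cxcr4 marked a different set of cells. In Ctrl E8.5 the level was 20.3 UPM in neural-like cells (10 UMIs), 16.8 in endothelial-like cells (36), 15.3 in BrM-like cells (41), 11.7 in neural crest-like cells (9), 9.01 in aSHF/SoM-like cells (13) and 6.96 in MLP-like cells (12), against 2.11 in mesenchyme-like cells (21). In Ctrl E9.5 the highest levels were 11.8 UPM in BrM-like cells (118 UMIs, 9.77 to 14.1) and 10.5 in neural-like cells (18 UMIs, 6.20 to 16.5), whose intervals overlapped. Epithelial-like cells were at 5.45 UPM (4.31 to 6.80) and mesenchyme-like cells, the main sender, at 0.351 (0.187 to 0.600). All neighbours in this order had overlapping intervals, so single ranks are not resolved at this depth.

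At 10000 UMIs per cell, 51 of 473 BrM-like cells (10.8%) of Ctrl E9.5 and 36 of 707 epithelial-like cells (5.09%) had a Cxcr4 UMI. In mesenchyme-like cells, the class with the lowest Cxcr4 level, the count was 6 of 2077 (0.289%). At E8.5 the count was 22 of 141 BrM-like cells (15.6%) and 12 of 101 endothelial-like cells (11.9%), against 10 of 538 mesenchyme-like cells (1.86%). Before thinning, 89 of the 519 BrM-like cells of Ctrl E9.5 and 13 of the 2340 mesenchyme-like cells had one.

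In the library labelled cKO at E9.5, Cxcr4 was lower in the 2 classes with the highest Ctrl levels. BrM-like cells, the progenitors of jaw and facial muscle, had 118 UMIs in Ctrl and 42 in cKO, or 11.8 and 5.0 UPM, a log2 ratio of -1.24 (-1.78 to -0.72). Of the 2 members with at least 50 UMIs in this class, Cxcr4 was at or below -1 and Cxcl12 was not, where 5.72% of 9904 genes were and the median of all genes was -0.24. The thinned share of BrM-like cells with a Cxcr4 UMI was 10.8% in Ctrl and 5.33% in cKO (22 of 413 cells), a cKO minus Ctrl difference of -5.46 percentage points (-9.16 to -1.73). At E8.5 the BrM-like levels were 15.3 and 16.8 UPM (0.13, -0.50 to 0.77), a difference within counting error.

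Of the class's 2 BrM-like clusters, 1 had a Cxcr4 difference beyond counting error. Cluster 6, led by Lhx2, Hlx and Tcf21, had 102 Cxcr4 UMIs in 411 Ctrl cells and 24 in 294 cKO cells, or 13.5 and 4.22 UPM (-1.68, -2.39 to -1.03). Cluster 16, with Msc, Hlx and Uncx among its leading genes, had 16 UMIs in 108 Ctrl cells and 18 in 136 cKO cells, or 6.49 and 6.63 UPM (0.03, -1.02 to 1.10). The intervals of the 2 ratios do not overlap, and the difference between them was not tested. Cxcl12 showed the reverse split, with 58.7 and 65.2 UPM in cluster 6 (0.15, -0.05 to 0.35) and 49.9 and 89.9 UPM in cluster 16 (0.85, 0.53 to 1.17).

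Other muscle progenitor genes were also lower in cluster 6. The LIM-homeobox gene Lhx2 was at 126 UPM in Ctrl and 25.8 in cKO, and the bHLH gene Tcf21 at 153 and 83.5, while Msc was at 58.7 and 70.1. In cluster 16 Lhx2 was at 152 and 49.0 UPM, although Cxcr4 did not differ there beyond counting error. Within the BrM-like cells of Ctrl E9.5, cells with a Cxcr4 UMI had 1.33 Lhx2 UMIs per cell at 10000 UMIs and those without had 1.26, and in cKO the values were 0.364 and 0.330. Lhx2 was thus at a like level in cells with and without Cxcr4 in either library.

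**Figure D3:**
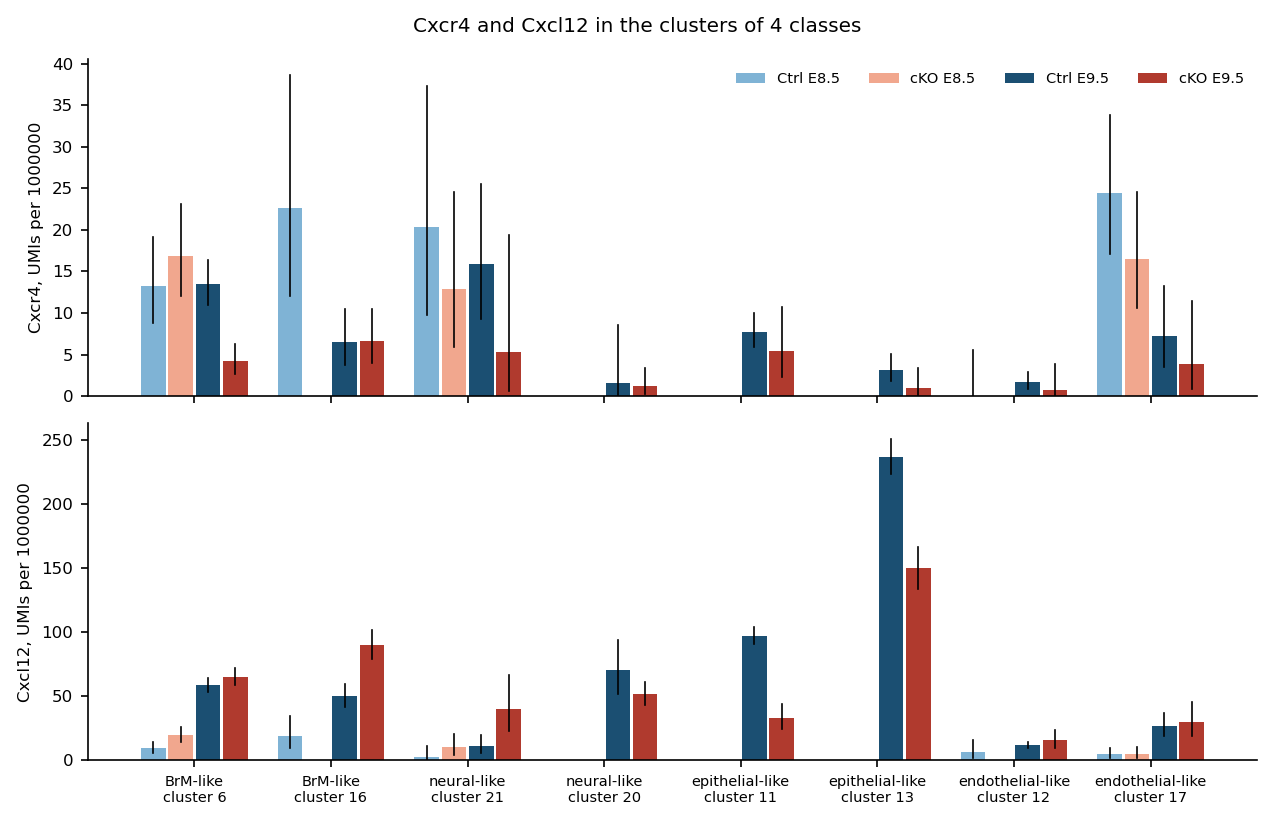
Cxcr4 (top) and Cxcl12 (bottom) in UMIs per 1000000 UMIs for the 8 main clusters of 4 classes, as bars from 0 with exact 95% Poisson intervals, 1 bar per library with at least 20 cells. In BrM-like cluster 6, Cxcr4 stands at 13.5 in Ctrl and 4.22 in cKO at E9.5, and in BrM-like cluster 16 at 6.49 and 6.63.

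In neural-like cells the Cxcr4 level was 10.5 UPM in Ctrl and 1.69 in cKO at E9.5 (-2.63, -4.42 to -1.15), on 18 and 5 UMIs. The class was made up differently in the 2 libraries: cluster 21, with the neural progenitor genes Fabp7, Hes5 and Sox2, held 64.1% of it in Ctrl and 22.1% in cKO, and cluster 20, with the neuronal genes Tubb3, Neurod1 and Phox2a, held 35.9% and 77.9%. Within cluster 21 the Cxcr4 counts were 17 UMIs in 66 Ctrl cells and 2 in 36 cKO cells, or 15.9 and 5.36 UPM, and the interval of that ratio held 0 (-1.57, -4.73 to 0.50). Cluster 20 was low in both, at 1.53 and 1.16 UPM. At E8.5, where all 28 Ctrl cells of the class were in cluster 21, the levels were 20.3 and 14.0 UPM with 10 UMIs in each library.

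Epithelial Cxcr4 was counted mainly in the endoderm-marked cluster 11, with 60 UMIs in Ctrl E9.5 and 8 in cKO, or 7.72 and 5.41 UPM (-0.51, -1.79 to 0.56). The ectoderm-marked cluster 13, which had the highest epithelial Cxcl12, had 3.1 and 0.933 UPM of Cxcr4 on 16 and 2 UMIs. For the whole class the ratio was -0.91 (-1.97 to 0.01), with fewer such cells in cKO (194 against 752).

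Endothelial Cxcr4 was at a higher level in cluster 17 than in cluster 12. In cluster 17, with the early haemato-endothelial regulators Etv2 and Lmo2, it was at 24.4 UPM in Ctrl E8.5 and 16.5 in cKO E8.5, and at 7.23 and 3.91 at E9.5. In cluster 12, with the vessel genes Cldn5 and Emcn, it was at 1.69 and 0.694 UPM at E9.5, and at E8.5 it had 0 UMIs in 32 Ctrl cells and 1 in 15 cKO cells. Over the class the Ctrl stage ratio E9.5/E8.5 was -2.70 (-3.54 to -1.90), but cluster 17 was 69.5% of the class in Ctrl E8.5 and 17.3% in Ctrl E9.5, and within it the ratio was -1.75 (-2.93 to -0.71), while in BrM-like cells it was -0.37 (-0.90 to 0.18). The genotype intervals held 0 in endothelial-like cells at both stages (-0.27 at E8.5 and -0.51 at E9.5), with 22 and 4 UMIs at E9.5.

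The remaining classes had no Cxcr4 difference beyond counting error at E9.5. In aSHF/SoM-like cells the levels were 2.59 and 2.75 UPM and in MLP-like cells 1.60 and 1.72. Over the 8 classes with a ratio, the interval was below 0 in BrM-like and neural-like cells and held 0 in the other 6. At E8.5 it held 0 in all 6 named classes with a ratio, and the unnamed cluster 2 was at 7.96 UPM in Ctrl (26 UMIs) and 1.31 in cKO (4 UMIs).

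How much of the lower Cxcr4 went with class composition was described by reweighting. With the cKO levels of each of the 24 clusters and the Ctrl shares of UMIs, the Cxcr4 log2 ratio at E9.5 was -0.93. With the Ctrl levels and the cKO shares it was -0.66, so each alone gave a lower value. For Cxcl12 the same 2 values were -0.60 and 0.19, so the cKO shares alone gave a higher level and the cKO levels a lower one. For Ackr3 they were -0.10 and -0.05.

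**Figure D4:**
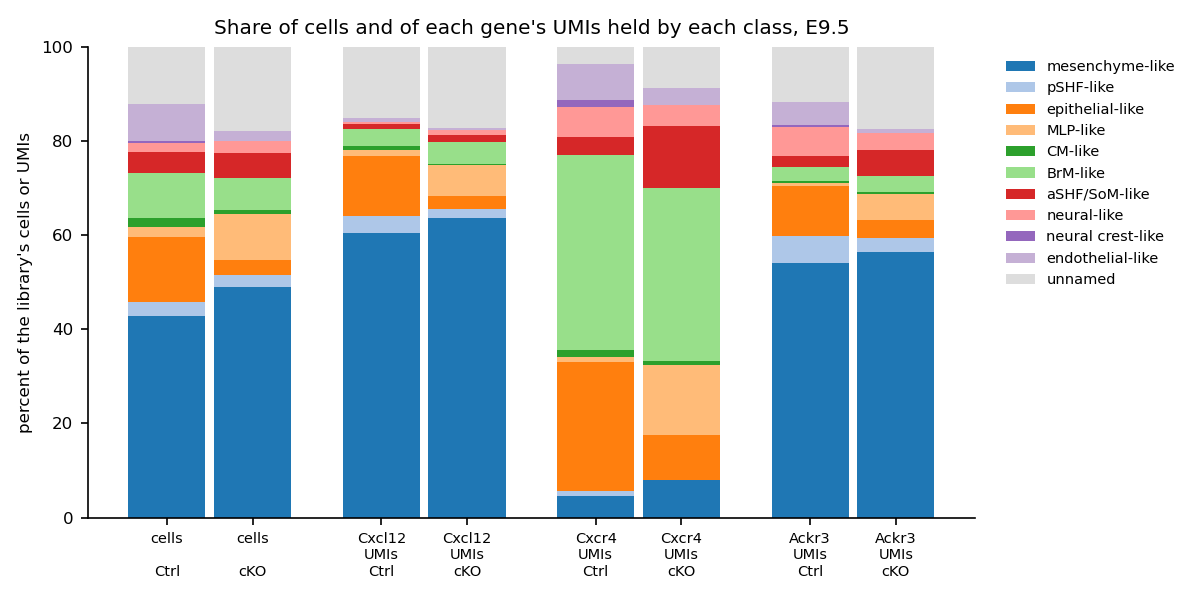
Percent of the cells and of each gene's UMIs held by each class in the Ctrl and cKO libraries at E9.5. Mesenchyme-like cells hold 60.5 and 63.6% of Cxcl12 UMIs and 54.1 and 56.4% of Ackr3 UMIs, and BrM-like cells 41.5 and 36.8% of Cxcr4 UMIs from 9.52 and 6.86% of cells.

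Most UMIs of the scavenging receptor were in the main sender class. Mesenchyme-like cells held 133 of the 246 Ackr3 UMIs of Ctrl E9.5 (54.1%) and 133 of the 236 of cKO E9.5 (56.4%). The highest level per UMI was in neural-like cells, at 8.72 UPM in Ctrl (15 UMIs, 4.88 to 14.4), ahead of pSHF-like cells at 4.69 (14 UMIs, 2.57 to 7.87) and mesenchyme-like cells at 3.59 (3.01 to 4.26), with overlapping intervals. BrM-like cells, with most Cxcr4, had 0.700 UPM of Ackr3 on 7 UMIs.

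In cKO E9.5 Ackr3 was at 3.03 UPM in neural-like cells (9 UMIs), a ratio of -1.52 (-2.90 to -0.24), and at 2.68 UPM in mesenchyme-like cells, a ratio of -0.42 (-0.78 to -0.06) whose interval held the median of all genes, -0.21. Within neural-like cluster 21, a larger part of the class in Ctrl, the levels were 13.1 and 10.7 UPM (14 and 4 UMIs; -0.29, -2.35 to 1.38), and cluster 20 had 1.53 and 1.93. The 6 other classes with a ratio had intervals that held 0, among them pSHF-like (4.69 and 2.43 UPM) and epithelial-like cells (1.82 and 2.38). At 10000 UMIs per cell, 75 of 2077 mesenchyme-like cells (3.61%) in Ctrl and 72 of 2740 (2.63%) in cKO had an Ackr3 UMI.

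Among mesenchyme-like clusters, Ackr3 was highest in the Foxd1- and Tbx18-marked cluster 1, at 6.70 UPM in Ctrl and 6.23 in cKO at E9.5 (51 and 46 UMIs; -0.10, -0.71 to 0.50). The related cluster 9 was at 4.23 and 4.66 UPM. The Crym-marked cluster 7 was the one cluster with an interval below 0, at 3.46 and 1.22 UPM (-1.50, -2.89 to -0.25) on 20 and 8 UMIs, and it was also the cluster with the lowest Cxcl12 ratio of its class. The Tcf15- and Meox1-marked cluster 8 was low, at 0.784 and 1.70 UPM. At E8.5 the largest Ackr3 count in a named class of Ctrl was 8 UMIs, in aSHF/SoM-like cells (5.55 UPM), against 3 in cKO (1.46 UPM), and the interval of that ratio held 0.

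**Figure D5:**
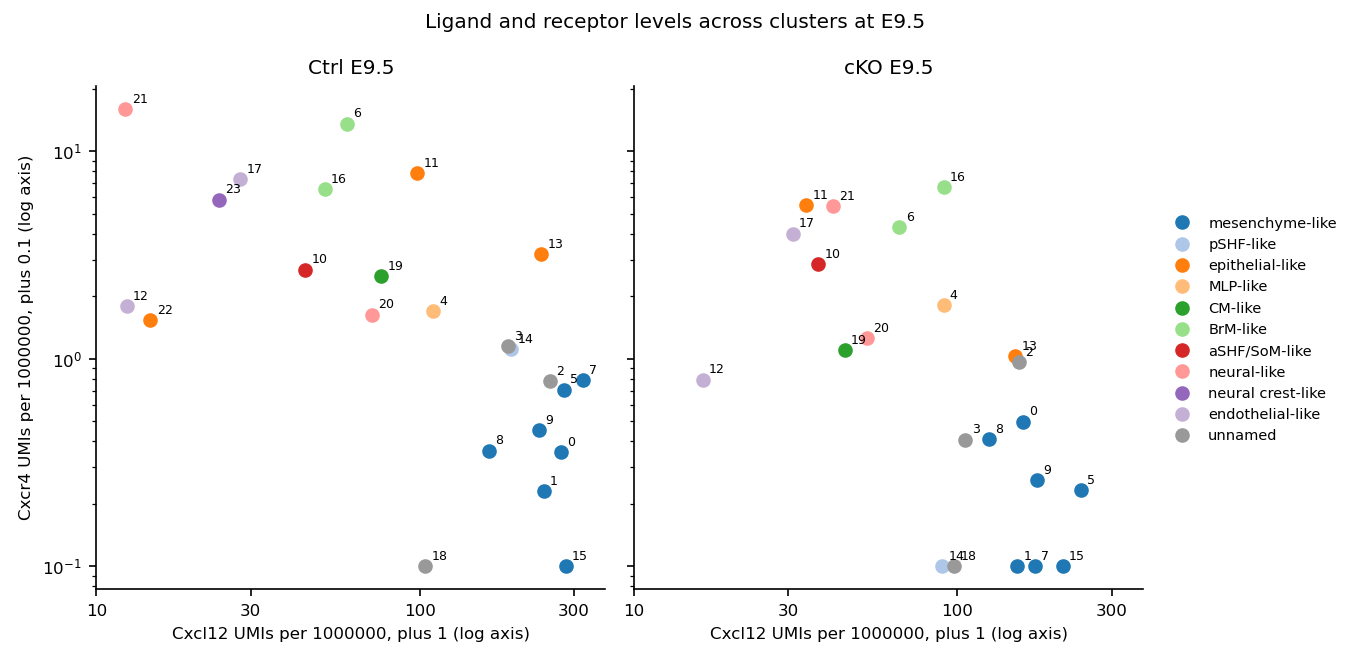
Cxcl12 (x axis, UMIs per 1000000 UMIs plus 1) against Cxcr4 (y axis, plus 0.1), both on log axes, with 1 numbered point per cluster of at least 20 cells in Ctrl E9.5 (left) and cKO E9.5 (right), coloured by class. Mesenchyme-like clusters lie at high Cxcl12 and low Cxcr4, and BrM-like cluster 6 moves from 13.5 to 4.22 in Cxcr4.

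Ligand and signalling receptor were seldom counted in the same cell. In Ctrl E9.5, thinned to 10000 UMIs, 51 of 4898 cells had both Cxcl12 and Cxcr4, against 76.9 if the 2 were independent over all cells. Cxcl12 was present in 40.8% of the Cxcr4-positive cells and in 62.1% of the rest. In cKO E9.5 the count was 25 of 5548 cells against 32.2. Within single classes of Ctrl E9.5 the counts lay closer to independence, with 19 epithelial-like cells against 18.9 and 13 BrM-like cells against 17.1. Small counts lay on both sides of it, with 6 against 5.09 in mesenchyme-like, 3 against 1.32 in aSHF/SoM-like and 0 against 0.899 in neural-like cells. Cxcr4 itself was counted in only 125 of the 4898 cells.

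Ackr3 and the ligand were counted together about as often as independence gives. In Ctrl E9.5, 86 cells had both Cxcl12 and Ackr3 against 78.8 if independent, and 66 of these were mesenchyme-like, against 63.6 in that class. In cKO E9.5 the count was 74 against 72.1. In pSHF-like cells only 1 cell had both, against 5.21. The 2 receptors were together in 3 cells of Ctrl E9.5 (3.27 if independent) and in none of 5548 cells of cKO E9.5 (1.18 if independent), where a count of 0 allows up to 3 cells.

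Most other chemokine genes had few UMIs in this lineage. Of 29 other chemokine ligands 28 were listed, and 7 had at least 50 UMIs at E9.5. The exceptions were Ccl27a, at 29.4 UPM in Ctrl and 20.2 in cKO (-0.54), and Ccl25, a chemokine of thymus and gut epithelium, at 13.7 and 14.6 (0.09). The B-cell chemokine Cxcl13 was at 0.870 UPM in Ctrl and 1.92 in cKO (1.14, 0.77 to 1.53), with 22 of its 82 Ctrl UMIs and 71 of its 201 cKO UMIs in pSHF-like cells. Fractalkine, Cx3cl1, was at 0.605 and 0.220 UPM (-1.46, -2.23 to -0.74), and 36 of its 57 Ctrl UMIs were in endothelial-like cells. These were 7.74% of Ctrl and 1.96% of cKO cells. Within them Cx3cl1 was at 4.24 UPM in Ctrl (2.97 to 5.86) and 2.72 in cKO (0.997 to 5.92, on 6 UMIs), with overlapping intervals. The median ratio of the 7 ligands was -0.07, against -0.26 for all genes.

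Of 21 other chemokine receptors, 4 had at least 50 UMIs at E9.5, of which 2 were at or below -1, against 8.22% of all genes. The atypical receptor Ackr1, known from venous endothelium and red cells, was at 3.74 UPM in Ctrl and 0.812 in cKO (-2.20, -2.56 to -1.86). Of its Ctrl UMIs, 323 of 353 were in endothelial-like cells, where it was at 38.0 and 16.3 UPM and which were 7.74% of Ctrl and 1.96% of cKO cells. The neutrophil chemokine receptor Cxcr2 was at 0.446 and 0.0860 UPM at E9.5 (42 and 9 UMIs; -2.37, -3.60 to -1.31), but at E8.5 at 0.991 and 3.30 (25 and 85 UMIs; 1.74, 1.08 to 2.44). The median ratio of the 4 receptors at E9.5 was -1.54.

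Mif, a cytokine that also binds Cxcr4, was at 3140 UPM in Ctrl and 3690 in cKO at E9.5, and Adm, a peptide that Ackr3 also takes up, at 2.56 and 2.54. All 16 genes for Gi proteins, receptor kinases, arrestins and regulators of receptor signalling had at least 50 UMIs at E9.5, and none passed 1 in size, with a median ratio of -0.38 against -0.26 for all genes. Gnai2, the Gi alpha subunit with the most UMIs, was at 245 and 165 UPM (-0.57), and Arrb2, an arrestin recruited by Ackr3, at 15.6 and 9.85 (-0.67). Others of the list were higher in cKO, among them Gng5 at 1070 and 1360 UPM (0.35) and Gnao1 at 1.52 and 2.29 (0.60). Of 8 genes for cleavage and matrix binding of Cxcl12, only the dipeptidyl peptidase Dpp4, which trims its amino end, was at or below -1 (0.435 and 0.143 UPM, -1.60), on 41 and 15 UMIs, where 8.22% of all genes were.

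Across the 21 clusters of Ctrl E9.5 with at least 50 cells, the genes whose log2 level was most like that of Cxcl12 were Ppfibp2 (Pearson r 0.89), the integrin subunit Itgb5 (0.87), Wdr86 (0.85), Stx16 (0.85) and Dact1 (0.84). For Cxcr4 they were Hpcal1 (0.85), Fjx1 (0.77), the dystrophin gene Dmd (0.76), Zmynd19 (0.75) and Nup153 (0.74). For Ackr3 they were Gpm6b (0.85), Zfp811 (0.82), BC023829 (0.80), Papolg (0.79) and Mob3b (0.78). These are descriptions over 10803 genes of 1 library, whose clusters share its depth and background, and none of the other members was among them. With 10 UPM added before the log, most Ackr3 cluster levels weigh little, and the highest was in neural-like cluster 21, on few UMIs.

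The motif GGTGTGA, the core of a T-box binding site, was searched on both strands of the RefSeq windows from 250 bases before to 50 after each start (GRCm38.p6). It was in none of the windows of Cxcl12, Cxcr4 and Ackr3, and in 3.98% of the 32851 windows of all genes. Its absence says only that these letters are not in these windows.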

How the data were processed

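The submitters' notes name Cell Ranger 3.1.0 and the mm10 (GRCm38) genome, while the E8.5 matrix headers name 3.0.2. The authors deposited filtered matrices of raw UMI counts per gene and cell, which were used as deposited, and the number of barcodes was within 1 of the cell number that the study states for each library. All barcodes were kept. Libraries were integrated and clustered with Seurat 5.3.0 (30 principal components, 2000 variable genes, resolution 1) without the 3 members, and clusters were named where at least 3 markers of a class were raised. Scrublet (Scanpy 1.11.5) marked too few barcodes at E9.5 to have worked (0.0734 and 0.0160%), so doublets were not removed. UMIs were summed per gene, class and library in Python 3.11.15. Ratios with both sums at or under 3 UMIs were not formed, and a sum of 0 was set to that floor. To compare shares, cells were thinned to 10000 UMIs, which left out 135, 84, 555 and 718 cells (Ctrl E8.5, cKO E8.5, Ctrl E9.5 and cKO E9.5). The background share of each comparison covers genes with at least 50 UMIs in both libraries together and a log2 ratio of 1 or more in size. With 1 library per group no p-value was computed. The genes named are the 3 members, the genes of listed chemokine lists past a log2 ratio of 1 over all cells at E9.5 with at least 50 UMIs, and the 5 genes most like each member over clusters, by Pearson correlation of log2(UPM + 10) among genes with at least 200 UMIs; a few further pathway and marker genes, and Cxcr2 at E8.5, were named after their values were seen. Members, lists and alternatives were chosen with earlier results of these data known. Alternatives were TMM scaling (edgeR 4.0.16), all genes in the total, filtered cells (at least 2000 UMIs, 1000 genes and at most 10% mitochondrial UMIs, which kept 1394, 1023, 5446 and 6264 cells), thinning, resolutions of 0.5 and 2, other integrations, markers left out of clustering and Scrublet doublets left out. Coordinates and promoter windows are RefSeq's.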

Additional observations from a re-analysis of the deposited data

Results flagged for a closer look

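The Cxcl12 ratio cKO/Ctrl had opposite signs at the 2 stages over all cells, with a log2 ratio of 0.42 at E8.5 and -0.38 at E9.5, where the interval of each excludes 0. The same held in mesenchyme-like cells (0.46 and -0.57) and in MLP-like cells (1.14 and -0.28, the former on 12 and 41 UMIs). At 10000 UMIs per cell, 9 of 90 and 10 of 100 MLP-like cells had a UMI at E8.5, 10.0% in both. The MLP-like interval at E9.5 (-0.50 to -0.05) held the median of all genes in that class, -0.21, and over all cells that median was -0.26. At E9.5 the sign also differed between classes: Cxcl12 was at 0.37 in BrM-like, 0.57 in neural-like and 0.55 in endothelial-like cells, against -0.57 in mesenchyme-like cells. The neural-like class was 35.9% cluster 20 in Ctrl and 77.9% in cKO, and within its clusters the ratios were -0.45 in cluster 20 and 1.84 in cluster 21. With 1 library per group, none of these differences between ratios was tested. By the paper's somite ranges the E8.5 cKO embryos were also slightly older than the Ctrl embryos, which cannot be told apart from genotype. No outlying sample could be looked for within a group of 1 library.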

How the results depend on the processing

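For the values that answer a comparison, 103 of 117 alternatives kept the ratio within its counting interval. Another 12 moved it outside that interval with the same sign, toward 0 or away from it. The other 2 turned a ratio whose interval excludes 0. Within the 103, 2 ratios whose intervals hold 0 also changed sign, Ackr3 over all cells at E9.5 (-0.21, and 0.05 under TMM) and Cxcr4 in BrM-like cells at E8.5 (0.13, and -0.29 in thinned cells). TMM scaling, which adds 0.26 over all cells at E9.5, gave -0.12 for Cxcl12 over all cells at E9.5 (thinned cells gave -0.42), -0.38 in mesenchyme-like cells, and stage ratios in Ctrl of 2.59 for Cxcl12 and -1.52 for Cxcr4. Alternatives by single cluster were added after seeing the data. They gave Cxcl12 ratios at E9.5 of -0.78, -0.66, -0.21, -0.88, -0.39, -0.42 and -0.42 in mesenchyme-like clusters 0, 1, 5, 7, 8, 9 and 15. Ratios that exclude 0 over the class changed sign for Cxcr4 in BrM-like cluster 16 alone (0.03) and for Ackr3 in neural-like cluster 20 alone (0.33), both with intervals that hold 0. Leaving out the barcodes with most UMIs was also added after seeing the data and turned no sign. For 18 alternatives on shares of cells, 16 stayed within counting error, of which 3 changed the sign of an E8.5 difference: Cxcr4 in BrM-like cells with at least 2 UMIs (0.332) or at 5000 UMIs per cell (0.395) and Ackr3 in neural-like cells at 5000 (0.463). Counting only cells with at least 2 UMIs gave a cKO minus Ctrl difference of -17.0 percentage points for Cxcl12 in mesenchyme-like and -0.784 for Cxcr4 in BrM-like cells at E9.5. With each stage integrated alone, Cxcl12 in mesenchyme-like cells at E8.5 was at 0.34 (-0.07 to 0.76), which holds 0. Without integration no value could be had in the leading class for Cxcl12 at E9.5 or for Cxcr4 at either stage, because those classes were empty or nearly so in a library, and Ackr3 in neural-like cells at E8.5 had too few UMIs under every setting. No paired analysis was possible because each group has 1 library. Embryo, library and genotype cannot be told apart in these data. In classes with under 20 UMIs of a receptor, differences of several fold can lie within counting error.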
